A study of Mus musculus with 24 samples.

Results

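Sham-treated TM3 cells were compared at 4 h and at 0 h after the treatment. TM3 is a mouse Leydig cell line, so all samples stand for 1 established line and not for animals. The samples were chosen by their titles as the sham-treated cells of these time points, which gave 4 biological replicates at 0 h and 4 at 4 h, or 8 of the 24 arrays of the study. Nanosecond pulsed electric field (nsPEF) exposure was the treatment under study. Sham cells went through the whole handling without the pulses. Semi-confluent cultures grown in serum were taken into suspension, washed in cold saline, moved to binding buffer, strained, held in cuvettes at room temperature and, at harvest, washed again, pelleted and frozen. The 0 h sample is therefore a handled suspension and not an undisturbed culture, and no untouched culture is among the groups. The culture of the cells between the treatment and 4 h is not described in the labels. The 8 arrays of a time point shared 1 slide, so the 2 groups differ in time, in what the cells went through in that time and in slide, and these cannot be told apart.

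Growth factors, stress and attachment start a well-described order of transcription in cultured cells. Immediate-early genes such as Fos, Jun and Egr1 are transcribed within minutes from promoters that Srf and Creb already occupy, and their short-lived mRNAs are removed by the decay factors and signals by the phosphatases that are made in the same wave. A delayed wave follows, with growth factors, cyclin D, adhesion receptors, proteases and the machinery that builds ribosomes. Leydig cells are the steroid-producing cells between the seminiferous tubules of the testis.

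Each RNA sample was labelled with Cy3 and hybridized to its own Agilent array. Values are given as log2 of the processed signal minus the 75th percentile of the array, called the log2 level here. A value of 0 is that percentile, and a difference of 1 is a 2-fold change. A probe was tested where the software had called it well above background on all 4 arrays of at least 1 of the groups, which held for 32566 of 56605 probes. The probes of the 23787 genes with a symbol differ in their sequence, so levels are compared between arrays and not between genes. On the 75th percentile itself, the 4 h arrays were brighter (455 to 787 intensity units against 377 to 438 at 0 h, two-sided p = 0.0286 by exact permutation, which is the smallest p that 4 against 4 allows). The share of probes well above background was 58.9% ± 0.922 (SD, n = 4) at 0 h and 59.6% ± 1.88 (SD, n = 4) at 4 h. Replicate 4 at 4 h was the brightest array, at 787 intensity units against 455 to 473 for the other 3 at 4 h. Correlations between arrays of one group were at least 0.9961 at 0 h and 0.9915 at 4 h (0.9964 without replicate 4), and they lay between 0.9613 and 0.9678 across the groups. Values without this array are given beside several of the results below. Where a gene's transcript level differs in such bulk samples, fewer cells with the transcript and less of it in each cell cannot be told apart.

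From 0 h to 4 h, 10687 probes (32.8% of those tested) were higher and 10963 (33.7%) were lower in limma's moderated test with an adjusted p under 0.05, and the median difference over all tested probes was 0.0004. With this share of the array past the threshold, a call alone says little of a gene, so a call of at least 2-fold is given beside it. It held for 2897 probes (8.90%) that were higher and 2885 (8.86%) that were lower, of which 470 and 496 were past 4-fold. Counted by gene, with the brightest tested probe of each of 14957 genes, 33.9% were higher, 38.4% lower, 8.40% at least 2-fold higher and 10.4% at least 2-fold lower, and the median was -0.037. The percentages by gene are the background for the gene lists below, and a count near them does not set a list apart. Of the tested probes 29406 were well above background on all 8 arrays. Another 1596 passed through 0 h only and 1564 through 4 h only, and such probes were kept for being high in 1 group. Such a gene that no array of the other group called well above background is given with a lower bound in place of a fold. Different probes of a gene were called in opposite directions for 238 of the 5519 genes with more than 1 tested probe.

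**Figure D1:**
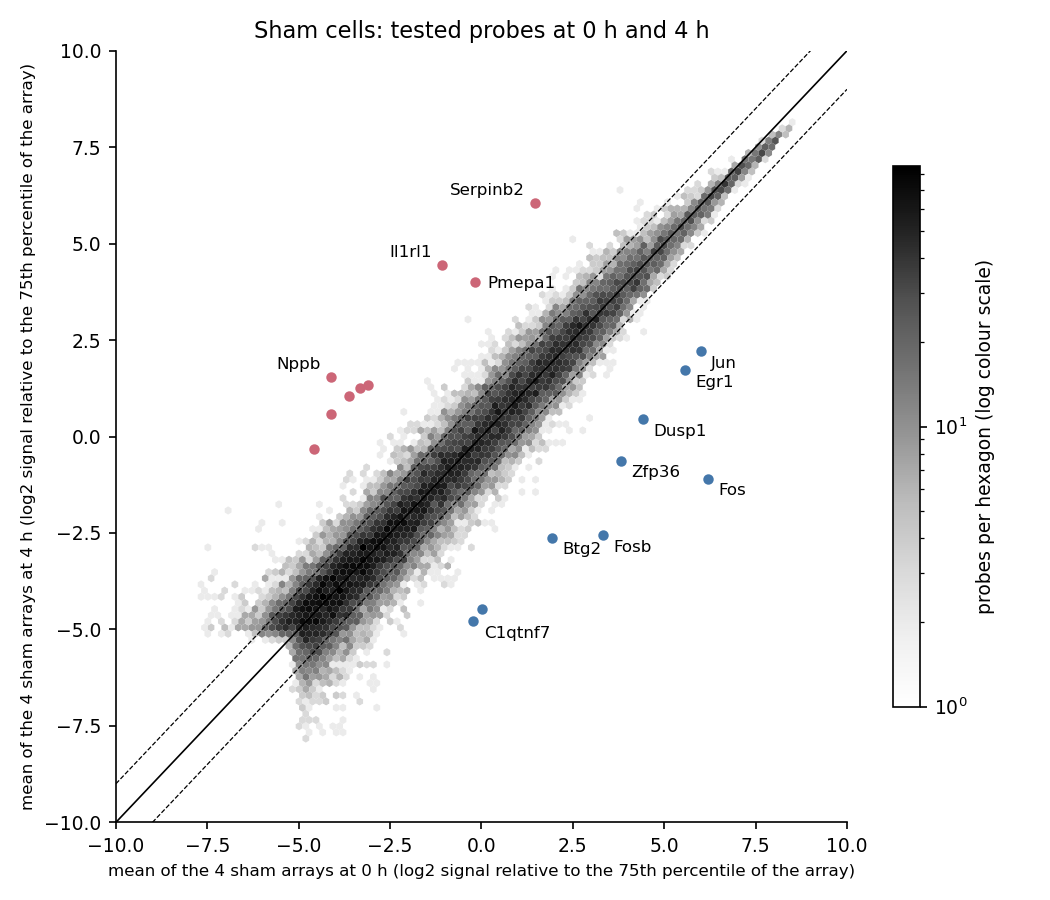
Mean log2 level of every tested probe over the 4 sham arrays at 0 h (horizontal) and at 4 h (vertical), as counts of probes per hexagon, with the line of equality and dashed lines at 2-fold. Coloured points are genes among those that rose most (red) and fell most (blue) among probes well above background on all 8 arrays. Fos went from 6.20 to -1.09 and Nppb from -4.11 to 1.55.

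The largest falls belonged to immediate-early genes. Fos, which encodes a subunit of the AP-1 transcription factor, read 6.27, 6.28, 6.08 and 6.15 at 0 h and -1.01, -1.10, -1.23 and -1.03 at 4 h. All 4 h arrays lay over 7 log2 units below all 0 h arrays, a difference of -7.29 ± 0.10 (SE) or 156-fold (adjusted p = 1.15e-20). Fosb, a second member of the family, read 3.35, 3.27, 3.32 and 3.40 at 0 h and -2.58, -2.45, -2.65 and -2.52 at 4 h, and the groups were again far apart (-5.88 ± 0.096, adjusted p = 1.47e-20). Other genes among the largest falls were C1qtnf7 (-4.56), Btg2 (-4.54 with this probe), Fam71a (-4.48), Zfp36 (-4.45), Dusp1 (-3.95), Egr1 (-3.85) and Jun (-3.79). C1qtnf7 encodes a secreted protein of the C1q family.

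Secreted and surface proteins stood among the largest rises. Nppb, the gene of B-type natriuretic peptide, read -4.08, -4.16, -4.10 and -4.08 at 0 h and 1.64, 1.61, 1.41 and 1.52 at 4 h, so that every 4 h array was above every 0 h array by over 5 log2 units (50.3-fold, 5.65 ± 0.11, adjusted p = 2.83e-19). Il1rl1, the receptor of interleukin-33, read -1.24, -0.93, -1.07 and -1.05 at 0 h and 4.55, 4.51, 4.38 and 4.30 at 4 h (45.6-fold, 5.51 ± 0.069, adjusted p = 2.35e-22). Serpinb2, an inhibitor of plasminogen activators, read 1.48, 1.58, 1.46 and 1.37 at 0 h and 6.04, 6.11, 6.01 and 6.00 at 4 h, with the smallest spread of these 3 genes at 4 h (4.57 ± 0.058). The groups did not overlap for any of the 3. Other genes among the largest rises were Kcnn4, a calcium-activated potassium channel (4.70), Plet1 (4.69), Slc16a11 (4.57), Ptpn22, a tyrosine phosphatase (4.42), Trim16 (4.25) and Pmepa1, an inhibitor of TGF-beta signalling (4.18). Ptpn22 was uneven at 0 h, where replicate 1 read -1.45 and the other 3 read -3.85 to -3.50, and even so the groups did not overlap.

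Some transcripts crossed the detection limit. Ngef, an exchange factor for small GTPases, was not well above background on any 0 h array and read 1.84, 1.84, 1.64 and 1.56 at 4 h, at least 145-fold higher. The bounds for Sprr2h (at least 49.6-fold), Nipal1 (22.9-fold), Sema7a (20.2-fold) and Bcl2l15 (20.1-fold) came next. In the other direction Lsmem1 read -1.09, -1.13, -1.03 and -0.76 at 0 h, was not well above background on any 4 h array and was at least 23-fold lower. It was followed by Gm30178 (at least 8.45-fold), Klhl24 (8.15-fold), Klf10 with 1 of its 2 probes (8.11-fold) and Rarb, a retinoic acid receptor (7.91-fold). The brighter Klf10 probe differed by -0.18, so the 2 probes of this gene disagree in size. Over the whole array 405 probes went from dim on all 0 h arrays to detected on all 4 h arrays, and 326 went the other way.

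Among the AP-1 subunits, the Jun family fell and the Fos family was divided. Of 10 tested subunits 2 were higher and 7 lower, against 33.9% and 38.4% of all genes. By at least 2-fold, 2 were higher and 6 lower, against 8.40% and 10.4%. Their median was -1.96 against -0.037 over all genes. Jun read 6.05, 6.00, 5.96 and 5.99 at 0 h and 2.14, 2.29, 2.19 and 2.20 at 4 h (-3.79 ± 0.047, adjusted p = 2.35e-22). Junb (-1.86) and Jund (-2.06) fell with it, so all 3 Jun genes were lower, and so was Atf3 (-3.19), a stress-induced partner. Fosl1, the Fos-family member that is made late and lasts longer, went the other way and read 2.10, 2.04, 2.13 and 2.27 at 0 h and 5.15, 5.28, 5.16 and 4.89 at 4 h (7.92-fold higher, adjusted p = 9.8e-17). Fosl2 rose by 1.03, just past the 2-fold limit, and fell short of it without replicate 4 of 4 h, so that 1 subunit and not 2 was then at least 2-fold higher. Fos, Fosb and all 3 Jun genes were thus higher at 0 h, and Fosl1 and Fosl2 at 4 h.

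The other immediate-early factors were mostly lower too. Of 19 tested, 5 were higher and 12 lower, against 33.9% and 38.4% of all genes (median -0.61). Changes of at least 2-fold were 1 and 7, against 8.40% and 10.4%. Egr1, a zinc-finger factor, read 5.59, 5.61, 5.59 and 5.49 at 0 h and 1.76, 1.56, 1.83 and 1.75 at 4 h (-3.85 ± 0.076, adjusted p = 2.83e-19), and Egr2 fell by the same order (-3.26). Nr4a1, an orphan nuclear receptor, read 6.62, 6.68, 6.60 and 6.59 at 0 h and 3.05, 3.09, 3.06 and 3.12 at 4 h (-3.54 ± 0.042), and Nr4a2 was also lower (-2.08) while Nr4a3 differed by -0.21 and did not pass the test. Ier2 (-2.10), Csrnp1 (-1.70) and Rhob (-1.15) were at least 2-fold lower. Against the rest, Maff (1.07), Mcl1, which encodes a survival factor of the Bcl2 family (0.96), Srf itself (0.81) and Plk2 (0.52) were higher. Egr3 was called higher with its brightest probe (0.36), its probes were called in opposite directions, and the mean of its probes was lower.

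Promoters of immediate-early genes are known for elements that constitutive factors bind. The cyclic AMP response element (CRE), bound by Creb and Atf factors, and the CArG box, bound by Srf, were searched in the 250 bases before each start in RefSeq (build GRCm38.p6), on both strands. A window was at hand for 11843 of the 14957 tested genes, matched by symbol. The CRE core TGACGT, which the full CRE contains, was in 10.5% of them (7.29% of all 27025 windows), the full TGACGTCA in 2.78% and the CArG box in 1.49%. Of the AP-1 genes 3 of 9 with a window held the core, and of the immediate-early factors 5 of 15. The full CRE was in 0 of the 9 and 2 of the 15, and the CArG box in 0 and 2. Windows are shown for 6 genes that fell at least 2-fold, picked for the match, with the matching letters in capitals. The lists of mRNA decay and MAP kinase feedback below, with Btg2, Zfp36 and Dusp1, were not counted for these elements. The core is shown for Fos and Atf3, the full CRE for Dusp1 and Btg2 and the CArG box for Egr2 and Zfp36.
Fos: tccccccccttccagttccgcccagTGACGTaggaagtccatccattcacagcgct
Atf3: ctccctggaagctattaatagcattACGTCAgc
Dusp1: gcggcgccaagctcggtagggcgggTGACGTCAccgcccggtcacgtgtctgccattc
Btg2: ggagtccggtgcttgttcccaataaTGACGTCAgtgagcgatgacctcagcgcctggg
Egr2: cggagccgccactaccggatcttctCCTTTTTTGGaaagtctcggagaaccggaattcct
Zfp36: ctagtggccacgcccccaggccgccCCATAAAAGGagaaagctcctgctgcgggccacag
They lie at chr12:85473799-85473854, plus strand (Fos), chr1:191183334-191183366, minus strand (Atf3), chr17:26508583-26508640, minus strand (Dusp1), chr1:134079289-134079346, minus strand (Btg2), chr10:67537469-67537528, plus strand (Egr2) and chr7:28379252-28379311, minus strand (Zfp36). The match starts 66 bases before the start of Fos, 8 before that of Atf3, 143 before Dusp1, 166 before Btg2, 72 before Egr2 and 58 before Zfp36. A match is a description of letters, and elements farther upstream lie outside the window. Among all genes that fell at least 2-fold the core was in 9.17% and the CArG box in 0.819% against 10.5% and 1.49% of all tested genes.

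Of 8 regulators of mRNA decay, 5 were lower and 2 higher, against 38.4% and 33.9% of all genes (median -0.32). Zfp36, which encodes tristetraprolin and sends mRNAs with AU-rich elements to decay, read 3.83, 3.78, 3.79 and 3.89 at 0 h and -0.67, -0.67, -0.54 and -0.61 at 4 h (-4.45 ± 0.09, adjusted p = 4.04e-19). Btg2, an antiproliferative factor that promotes deadenylation, read 2.32, 2.48, 2.44 and 2.59 at 0 h and -1.98, -1.77, -1.79 and -1.67 at 4 h with its brighter probe (-4.26 ± 0.077), and Tob1, of the same family, was also lower (-1.76). These 3 passed 2-fold. The relatives Zfp36l1 (-0.47) and Zfp36l2 (0.64) went in opposite directions.

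Feedback regulators of MAP kinases were divided in direction, with more of them higher than lower. Dusp1, a phosphatase of the immediate-early wave, read 4.42, 4.58, 4.21 and 4.41 at 0 h and 0.34, 0.36, 0.49 and 0.63 at 4 h (-3.95 ± 0.073, adjusted p = 9.66e-20). Dusp5 (1.69), Dusp14 (1.24), Dusp4 (0.99), Dusp7 (0.86) and Dusp6 (0.78) were higher, as was Spry2 (1.50), an inhibitor of receptor tyrosine kinase signalling. Errfi1, which binds and inhibits the EGF receptor, read 3.53, 3.61, 3.34 and 3.51 at 0 h and 6.36, 6.32, 6.15 and 6.02 at 4 h, a 6.56-fold rise without overlap of the groups (2.71 ± 0.084, adjusted p = 1.98e-16). Lrig1, another negative regulator of this receptor, rose by 1.22, while Spry4 (-0.88), Dusp8 (-0.88), Lrig3 (-0.59) and Dusp16 (-0.51) were lower. In all, 12 of 18 tested members were higher and 5 lower, against 33.9% and 38.4% of all genes (median 0.67). Of the members 5 rose and 1 fell at least 2-fold, against 8.40% and 10.4%.

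Hbegf and Ereg, which encode ligands of the same receptor, were higher at 4 h. Hbegf read 0.93, 0.91, 0.85 and 1.01 at 0 h and 2.83, 3.06, 2.84 and 2.95 at 4 h (1.99 ± 0.091, adjusted p = 8.19e-14). Ereg, the gene of epiregulin, read 1.62, 1.73, 1.37 and 1.53 at 0 h and 3.97, 3.91, 3.79 and 3.72 at 4 h (2.28 ± 0.11, adjusted p = 3.28e-13). Areg, the gene of amphiregulin, was well above background on 0 of the 4 arrays at 0 h and on all 4 at 4 h, at least 4.71-fold higher. Btc, detected on 2 arrays at 0 h, differed by 1.53 and did not pass the test, and Nrg1 was higher with its brightest probe (0.72) while its probes were called in opposite directions. Of the 7 ligands 5 were tested, and 4 were called higher and 0 lower, against 33.9% and 38.4% of all genes. Areg and Btc had passed the filter through 4 h alone. Tgfa and Epgn were below the filter.

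**Figure D2:**
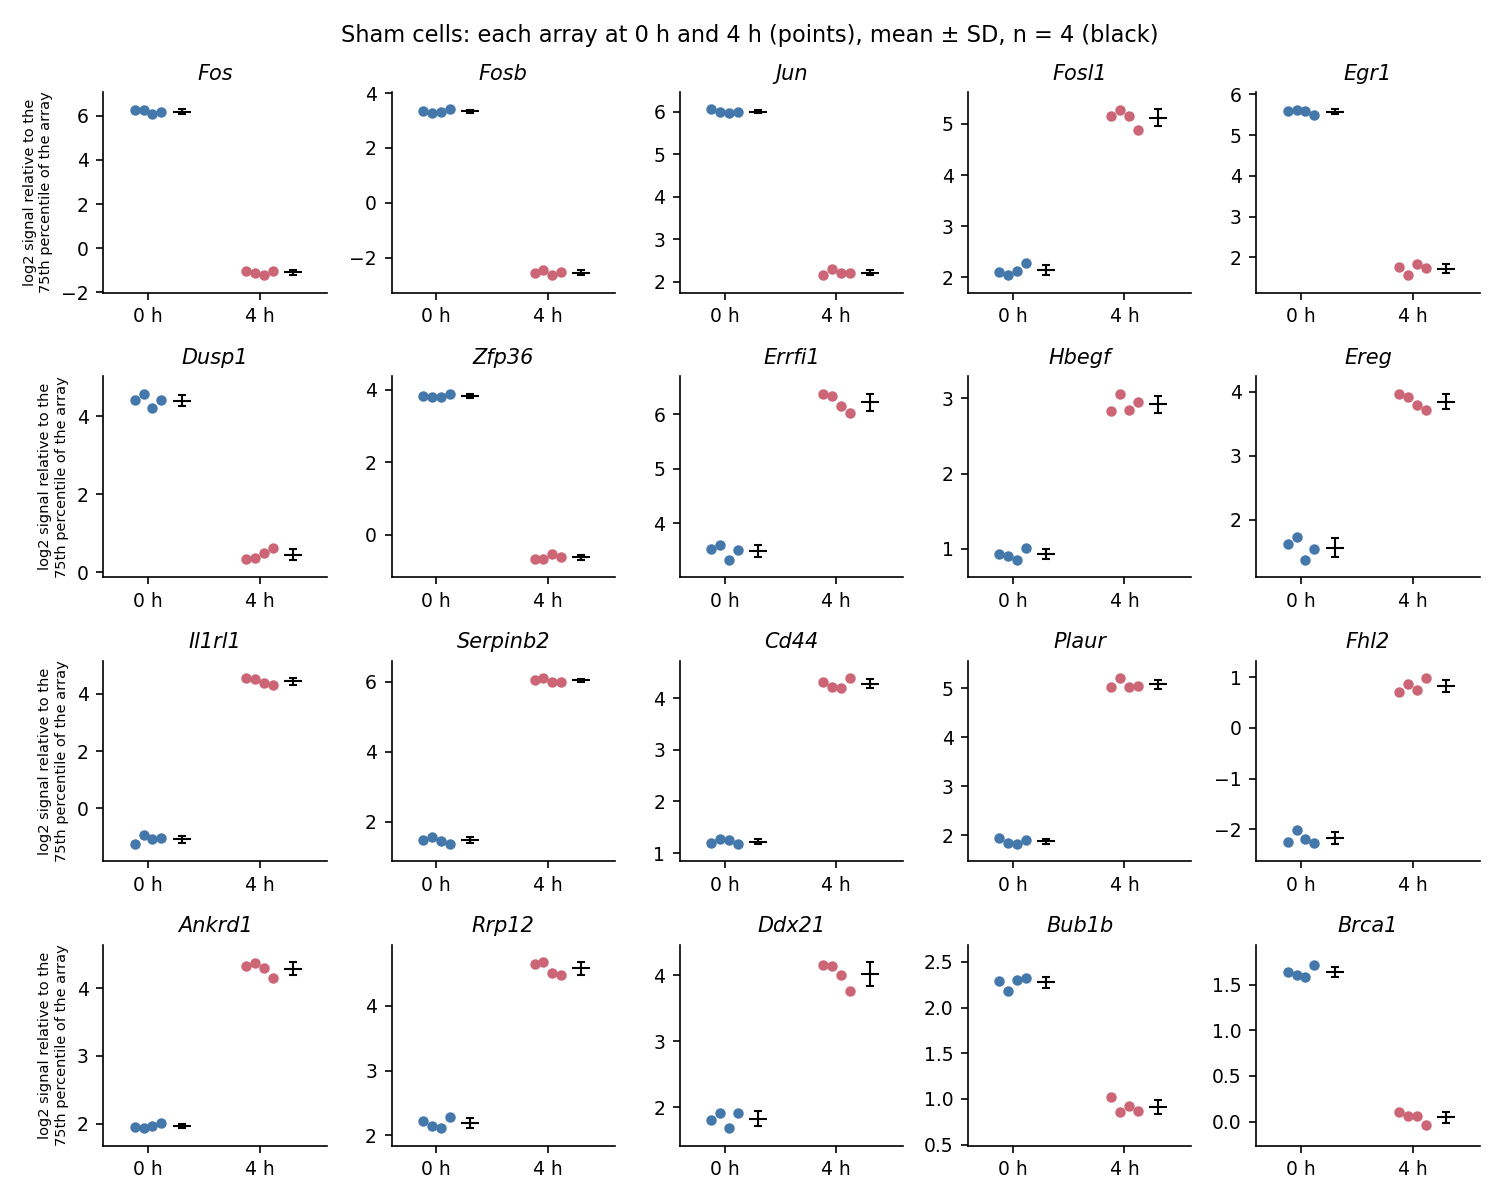
Log2 level of 20 genes on each sham array at 0 h (blue) and 4 h (red), in the order of replicates 1 to 4, with mean ± SD (n = 4) in black and a scale of its own in each panel. In none of the panels do the groups overlap. Fos, Fosb, Jun, Egr1, Dusp1, Zfp36, Bub1b and Brca1 were lower at 4 h and the other 12 genes higher.

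Genes for making ribosomes rose almost as a block. Of 70 tested genes of ribosome biogenesis 66 were higher and 0 lower, against 33.9% and 38.4% over all genes, and 46 were at least 2-fold higher against 8.40%. The median was 1.16, and on single arrays the median over the list was 1.15 to 1.17 above 0 h. The 28 genes of the small subunit processome, which cuts and folds the precursor of 18S rRNA, had 27 higher, 23 by at least 2-fold. In this group Rrp12 rose most and read 2.22, 2.14, 2.12 and 2.29 at 0 h and 4.64, 4.67, 4.51 and 4.48 at 4 h (2.39 ± 0.075, adjusted p = 2.45e-16), followed by Rrp9 (2.00), Tsr1 (1.76) and Pwp2 (1.75). Utp18 (1.98) was well above background on 2 arrays at 0 h and passed the filter through 4 h alone. All 22 large subunit assembly factors were higher, 17 by at least 2-fold, among them Ddx21, an RNA helicase, which read 1.80, 1.91, 1.68 and 1.92 at 0 h and 4.15, 4.14, 4.00 and 3.76 at 4 h (2.19 ± 0.093, adjusted p = 2.71e-14), Rrs1 (2.08) and Nop2 (1.72).

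RNA polymerase I and the nucleolar proteins differed among themselves in the size of the rise. Polr1e, a subunit of the polymerase, read 0.12, 0.16, 0.13 and 0.11 at 0 h and 1.96, 1.96, 1.92 and 2.03 at 4 h (1.84 ± 0.06), and Polr1b rose by 1.69, while Polr1a (0.70) and Polr1c (0.25) stayed under 2-fold. The nucleolar proteins Ncl (0.69) and Npm1 (-0.091, not past the test) and the methyltransferase Fbl (0.33) stayed under 2-fold too. Imp3, Nop10, Npm1 and Ubtf were the 4 members that did not pass. The E-box CACGTG, which Myc binds, was in 5 of the 59 promoters at hand for the list, or 8.47% against 9.3% of tested genes.

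Genes of translation rose in part. Of 36 initiation factors 26 were higher and 0 lower, against 33.9% and 38.4% of all genes. Only 3 were at least 2-fold higher, near the share of 8.40% over all genes. Eif5 was in the lead and read 3.42, 3.54, 3.25 and 3.20 at 0 h and 4.78, 4.77, 4.86 and 4.78 at 4 h (1.45 ± 0.069, adjusted p = 1.68e-13). Eif3j1 (1.26) and Eif4e, the cap-binding protein (1.16), followed. Among the tRNA synthetases 11 were higher and 5 lower, and none of them passed 2-fold. The 6 tested polyamine genes were all higher (median 1.25), with Smox (1.73), Sat1 (1.64) and Odc1, the first enzyme of the pathway, which read 3.96, 4.03, 3.92 and 3.97 at 0 h and 5.41, 5.37, 5.21 and 5.08 at 4 h (1.30 ± 0.061, adjusted p = 1.22e-13). Ppat, the first enzyme of purine synthesis, rose by 1.41, while Paics (-0.61) and Prps2 (-0.69) were lower in a list of 16 with 7 higher and 3 lower (9 and 3 without replicate 4 of 4 h).

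The ribosomal proteins did not share the rise, and their call rests on 1 array. Of 63 tested genes 31 were called lower and 1 higher (Rpl37, 0.67), against 38.4% and 33.9% of all genes. None passed 2-fold, and the median was -0.22. Rpl4 read 7.47, 7.28, 7.32 and 7.24 at 0 h and 7.24, 7.05, 7.06 and 6.20 at 4 h (-0.44 ± 0.16, adjusted p = 0.0212), and replicate 4 was far below the others while replicate 1 was level with the lowest 0 h array. The median over the list was -0.61 on that array relative to 0 h and between -0.11 and -0.081 on the other 3 at 4 h. Without replicate 4 of 4 h the median was -0.099, 8 were lower and 2 higher, and under quantile normalization the median was 0.006. That array was also the brightest, and the part of brightness in the result was not tested.

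**Figure D3:**
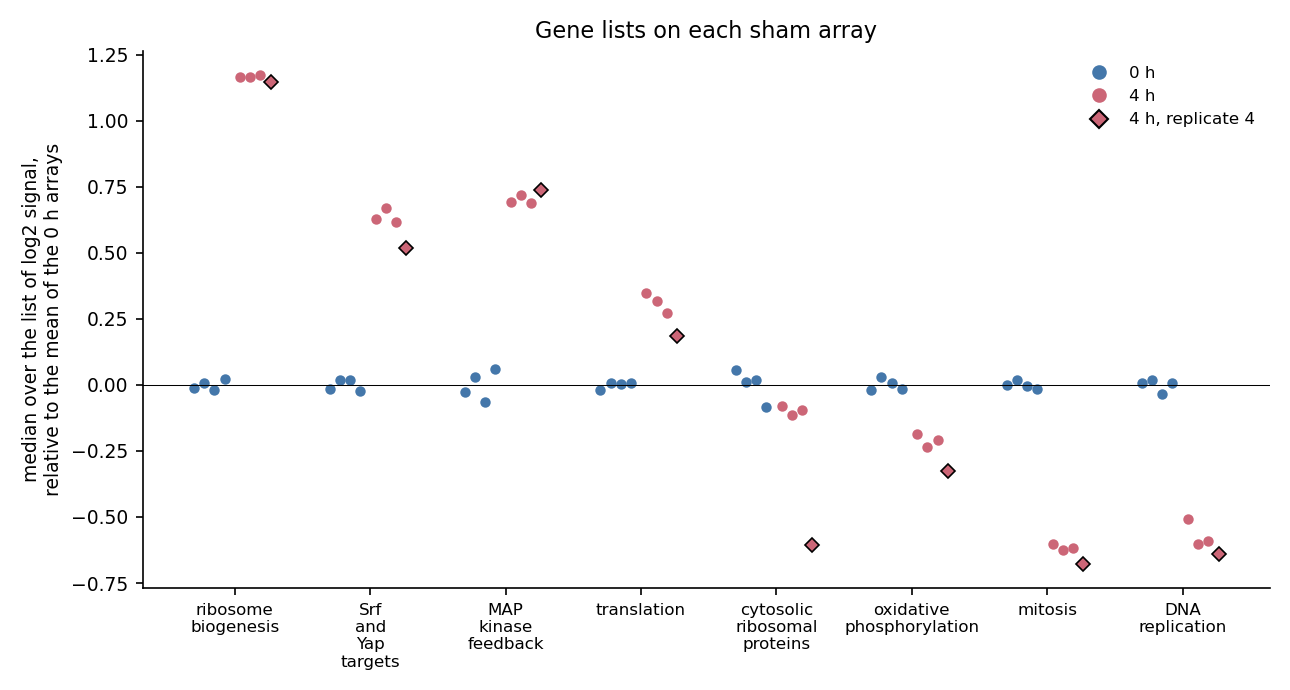
Median over the tested genes of 8 lists on each sham array, as log2 relative to the mean of the 0 h arrays, with 0 h in blue, 4 h in red and replicate 4 of 4 h as a diamond. For ribosome biogenesis all 4 h arrays lie at 1.15 to 1.17, and for the cytosolic ribosomal proteins the diamond lies at -0.61 and the other 3 between -0.11 and -0.081.

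The regulators of G1, the phase in which cells decide on division, moved both ways. Ccnd1, which encodes cyclin D1, read 2.72, 2.78, 2.63 and 2.73 at 0 h and 4.12, 4.15, 4.17 and 3.92 at 4 h (1.38 ± 0.062, adjusted p = 6.49e-14). Myc read 2.87, 3.03, 2.88 and 2.84 at 0 h and 3.78, 3.83, 3.90 and 3.91 at 4 h, a smaller rise without overlap (0.95 ± 0.057), and its antagonists Mxd1 (-1.22) and Mxd4 (-1.20) fell. The inhibitor Cdkn1a, known as p21, rose as well and read 0.43, 0.35, 0.58 and 0.54 at 0 h and 1.88, 2.11, 2.09 and 2.08 at 4 h (1.57 ± 0.076), while Cdkn2d (-1.81), Cdkn1b (-0.88) and Cdkn2c (-0.86) were lower. Of the 13 tested genes 6 were higher and 7 lower, against 33.9% and 38.4% of all genes.

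The genes of S phase and of mitosis were lower in most cases. Of 49 genes of DNA replication 42 were lower and 4 higher (median -0.61), against 38.4% and 33.9% of all genes. At least 2-fold were 8 and 1 (Orc2, 1.27), against 10.4% and 8.40%. Tk1, thymidine kinase, fell most and read 4.26, 4.17, 4.12 and 4.21 at 0 h and 2.74, 2.64, 2.69 and 2.60 at 4 h (-1.52 ± 0.046, adjusted p = 1.23e-16). The helicase genes Mcm2 to Mcm7 lay between -0.76 and -0.37, and the polymerase subunit Pold1 (-1.16), the clamp loader subunit Rfc2 (-1.12) and the ligase Lig1 (-1.08) were past 2-fold. Pcna (-0.022) and Fen1 (-0.0026) did not pass the test. E2f1, a factor that drives these genes, was lower (-1.12).

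Of 39 genes of mitosis 35 were lower and 1 higher (Ccnf, 0.14), 6 by at least 2-fold, against 10.4% of all genes, with a median of -0.61 against -0.037. Bub1b, a kinase of the spindle checkpoint, read 2.29, 2.18, 2.31 and 2.32 at 0 h and 1.02, 0.85, 0.92 and 0.86 at 4 h (-1.36 ± 0.052, adjusted p = 4.97e-15). Cenpf, a kinetochore protein, was lower (-1.54), with 3 values at 0 h and 4 at 4 h. Aspm (-1.30), Ndc80 (-1.29), Cdc25c (-1.29) and Ncaph (-1.19) were the others past 2-fold. The kinase Cdk1 (-0.23) and its cyclins Ccna2 (-0.22) and Ccnb1 (-0.22) were lower, as was the cyclin Ccnb2 (-0.97). Promoters of the mitotic genes often hold the letters CCAAT, read by NF-Y, and TTTGAA, the cell cycle homology region (CHR). CCAAT was in 25 of the 33 windows at hand (75.8% against 40.2% of tested genes) and TTTGAA in 11 (33.3% against 13.9%). Windows of Ccnb2, with 3 CCAAT matches, and Cdc20 (-0.71), with both kinds, are shown with the matches in capitals.
Ccnb2: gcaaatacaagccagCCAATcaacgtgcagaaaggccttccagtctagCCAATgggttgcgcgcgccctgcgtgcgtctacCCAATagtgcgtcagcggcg
Cdc20: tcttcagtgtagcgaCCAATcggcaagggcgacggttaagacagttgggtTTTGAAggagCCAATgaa
They lie at chr9:70421556-70421656, minus strand (Ccnb2) and chr4:118437344-118437411, minus strand (Cdc20) of GRCm38.p6. Mitotic genes are known for these elements in any condition.

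DNA repair genes were lower beside the replication genes. Of 32 tested, 25 were lower and 1 higher, against 38.4% and 33.9% of all genes. At least 2-fold were 11 and 1, against 10.4% and 8.40%. Without replicate 4 of 4 h, 25 were lower and 2 higher. In homologous recombination 10 of 12 were lower (median -0.97). Brca1 read 1.64, 1.61, 1.58 and 1.71 at 0 h and 0.11, 0.062, 0.06 and -0.039 at 4 h (-1.59 ± 0.055, adjusted p = 1.12e-15), and Brca2 (-1.66), Rad54l (-1.54), Fancd2 (-1.28) and Rad54b (-1.22) were also past 2-fold. Outside that pathway Neil3 (-1.89), Ddb2 (-1.57) and Prkdc (-1.26) fell at least 2-fold. Ercc1, of nucleotide excision repair, was the exception and read 1.02, 1.03, 1.09 and 1.15 at 0 h and 2.41, 2.46, 2.46 and 2.52 at 4 h (1.39 ± 0.064, adjusted p = 9.41e-14).

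Genes of the actin cytoskeleton and of the coactivator Yap rose. Of 29 tested targets of Srf and Yap 23 were higher and 4 lower, against 33.9% and 38.4% of all genes (median 0.62). The 2-fold limit was passed by 9 and 0 of them, against 8.40% and 10.4%. Fhl2, a LIM-domain protein that shuttles between adhesions and the nucleus, read -2.24, -2.01, -2.18 and -2.26 at 0 h and 0.72, 0.87, 0.74 and 0.99 at 4 h (8.02-fold, 3.00 ± 0.10, adjusted p = 5.59e-16). Ankrd1, a Yap target, read 1.96, 1.93, 1.97 and 2.01 at 0 h and 4.33, 4.37, 4.30 and 4.14 at 4 h (2.32 ± 0.075, adjusted p = 4.05e-16), and Ccn2 (1.95) and Amotl1 (1.79) rose with it. Ccn1, a second target of the immediate-early type, was lower (-0.31). Cnn1 (1.33), Tagln (1.29), Tes (1.20), Zyx (1.02) and Vcl, which encodes vinculin (0.89), were higher, Myl9 (-0.94) and Fhl1 (-0.64) were lower, and Actb differed by -0.35 without passing the test. The CArG box was in 7 of the 25 windows at hand for this list (28.0% against 1.49% of tested genes). The list was chosen for targets of Srf, which binds this box, so the share does not bear on the change at 4 h. Windows of Fhl2 and Vcl are shown with the box in capitals.
Fhl2: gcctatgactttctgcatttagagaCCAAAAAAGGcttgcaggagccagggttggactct
Vcl: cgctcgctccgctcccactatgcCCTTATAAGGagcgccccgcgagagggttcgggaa
They lie at chr1:43196823-43196882, minus strand (Fhl2) and chr14:20929148-20929205, plus strand (Vcl) of GRCm38.p6, and the boxes start 96 and 227 bases before the start. The same box stood in the windows of Egr2 and Zfp36, which fell.

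The adhesion and matrix genes went both ways. Of 7 integrins 5 were higher and 2 lower, and of 9 genes of focal adhesion and attachment 6 and 0 (5 and 0 without replicate 4 of 4 h). Of 14 proteases and inhibitors 9 were higher and 4 lower, and of 15 matrix proteins 6 and 9. Over all genes 33.9% were higher and 38.4% lower. Plaur, the receptor of urokinase, read 1.94, 1.83, 1.83 and 1.90 at 0 h and 5.04, 5.21, 5.03 and 5.05 at 4 h (9.23-fold, 3.21 ± 0.052, adjusted p = 1.46e-20). Cd44, the hyaluronan receptor, read 1.19, 1.27, 1.26 and 1.18 at 0 h and 4.32, 4.21, 4.21 and 4.39 at 4 h (3.06 ± 0.056, adjusted p = 9.35e-20). Itga6, a laminin-binding integrin chain, read 3.42, 3.45, 3.43 and 3.51 at 0 h and 5.90, 5.90, 5.85 and 5.91 at 4 h (2.44 ± 0.039, adjusted p = 1.46e-20), with 4 h arrays that differed by less than 0.06 log2 units. For these 3 genes every 4 h array was at least 2 log2 units above every 0 h array. Itga5 (1.62), the fibronectin receptor chain, and Itgb1 (0.76) were higher, and Itga1 (-1.25) and Itgb5 (-0.59) were lower.

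In the matrix, Tnc, which encodes tenascin C, rose most and read -2.74, -2.46, -2.92 and -2.99 at 0 h and -0.59, -0.22, 0.13 and 0.57 at 4 h (2.75 ± 0.23). The basement membrane genes Lamc1 (1.27), Col4a1 (0.71) and Lamb1 (0.57) were higher. Col1a2, a chain of collagen I, read 7.37, 7.25, 7.39 and 7.37 at 0 h and 6.34, 6.37, 6.29 and 6.26 at 4 h and was lower on every 4 h array (-1.03 ± 0.052, adjusted p = 3.69e-13), with Col5a2 (-0.96), Fbn1 (-0.79), Col3a1 (-0.66) and Col1a1 (-0.57) in the same direction. Of the proteases and their inhibitors, Mmp10 (2.40) and Timp1 (1.20) rose beside Serpinb2, and Adamts1 was lower (-2.42). Among the 45 tested genes of adhesion and matrix 26 were higher and 15 lower, against 33.9% and 38.4% of all genes. At least 2-fold higher were 10 and lower 3, against 8.40% and 10.4%.

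Inflammatory genes showed no common direction. Of 33 tested, 11 were higher and 15 lower (median -0.06), near the 33.9% and 38.4% of all genes. At least 2-fold were 6 and 4, against 8.40% and 10.4%. Il11, a cytokine of the IL-6 family, read -2.48, -2.46, -2.64 and -2.48 at 0 h and -0.21, -0.014, -0.16 and 0.032 at 4 h (2.43 ± 0.23, adjusted p = 8.09e-09), and Csf1, a macrophage growth factor, rose by 1.63. Csf2 was not well above background at 0 h, was detected on all 4 h arrays and was at least 1.36-fold higher, although with normexp background correction its difference was -0.055. The chemokine Cxcl10 read 3.69, 3.73, 3.60 and 3.62 at 0 h and 0.42, 0.15, 0.042 and 0.23 at 4 h (-3.45 ± 0.077, adjusted p = 1.75e-18). Cxcl2 read -3.35, -3.41, -3.45 and -3.18 at 0 h, was not well above background at 4 h and was at least 4.54-fold lower. Socs3 (-1.96) and Tlr2 (-1.02) fell, Tnfaip3 (1.17) and Nfkb1 (1.11) rose, and Nfkbia, the first inhibitor that NF-kB induces, was lower (-0.49).

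Signals of the TGF-beta family, Notch and FoxO factors were represented by several of the larger falls. Id1 (-1.17), Id2 and Id3 (-1.19), direct targets of BMP signalling, were lower, and Id2 read 2.73, 2.85, 2.51 and 2.73 at 0 h and 1.26, 1.25, 1.28 and 1.11 at 4 h (-1.48 ± 0.08, adjusted p = 1.34e-12). The ligand Tgfb3 read 2.63, 2.79, 2.79 and 2.77 at 0 h and 0.32, 0.12, 0.22 and 0.24 at 4 h (-2.52 ± 0.083, adjusted p = 4.62e-16), and Bmp4 (-2.47) and Smad6 (-1.27) fell too. The ubiquitin ligases Smurf1 (1.59) and Smurf2 (0.94), the repressor Skil (0.93) and Smad7 (0.77), which limit TGF-beta signalling, were higher. The 17 tested genes split into 8 higher and 9 lower, against 33.9% and 38.4% of all genes. Past 2-fold were 1 and 6, against 8.40% and 10.4%. Hes1, the main Notch target, read 1.37, 1.35, 1.18 and 1.18 at 0 h and -1.52, -1.51, -1.46 and -1.29 at 4 h (-2.71 ± 0.12, adjusted p = 3.53e-14). Notch3 (-1.61), Jag2 (-1.59) and Hey1 (-0.76) were lower among 7 tested Notch genes, of which 0 were higher, against 33.9% of all genes. Jag2 was well above background on 3 of the 4 arrays at 4 h and passed the filter through 0 h alone.

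FoxO factors turn on genes of resting and starved cells, and several of these were lower. Txnip, which binds thioredoxin and limits glucose uptake, read 2.95, 3.05, 2.95 and 2.97 at 0 h and 0.34, 0.062, 0.19 and 0.13 at 4 h (-2.80 ± 0.075, adjusted p = 8.2e-17). Ccng2, a cyclin of resting cells, read 2.06, 2.16, 2.07 and 2.00 at 0 h and -0.025, -0.36, 0.059 and -0.26 at 4 h (-2.22 ± 0.092, adjusted p = 1.74e-14), and Pik3ip1 (-1.91) and Arrdc3 (-1.16) fell as well. Of the 13 tested genes 7 were lower and 2 higher, against 38.4% and 33.9% of all genes. Bcl6 (1.31) was the member at least 2-fold higher and the only 1 called higher without replicate 4 of 4 h. The p53 targets went both ways. Sesn1 read 1.72, 1.85, 1.84 and 1.79 at 0 h and -0.27, -0.22, -0.24 and -0.42 at 4 h (-2.09 ± 0.06), Trp53inp1 was lower (-2.31), and Gdf15 was not well above background at 4 h and at least 4.71-fold lower. Aen (1.88), Phlda3 (0.79) and Mdm2 (0.58) were higher. Of the 13 tested p53 targets 5 were called in each direction, near the 33.9% and 38.4% of all genes. Among the Klf factors Klf5 rose (2.39), Klf4 fell (-1.43) and Klf11 was at least 3.98-fold lower. Of the 12 tested, 5 were higher (3 without replicate 4 of 4 h) and 7 lower, against 33.9% and 38.4% of all genes.

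Stress programmes differed in strength. Of the 13 Nrf2 targets, which protect against oxidants, 11 were higher and 0 lower, against 33.9% and 38.4% of all genes. The rise was at least 2-fold for 4 of them, against 8.40%. Srxn1, sulfiredoxin, read 3.00, 3.02, 2.95 and 3.02 at 0 h and 5.04, 4.94, 4.95 and 4.83 at 4 h (1.94 ± 0.055, adjusted p = 5.02e-17). Hmox1, heme oxygenase, read 3.35, 3.49, 3.39 and 3.50 at 0 h and 5.04, 5.05, 4.99 and 4.96 at 4 h (1.58 ± 0.06, adjusted p = 5.05e-15). Txnrd1 (1.29) and Sqstm1 (1.08) followed, while the metallothioneins Mt1 (-0.35) and Mt2 (-0.30) were lower. Of 16 heat shock genes 9 were higher and 1 lower, against 33.9% and 38.4% of all genes. Hsph1 (1.28), Cryab (1.25) and Chordc1 (1.11) were among those past 2-fold. Hspb1 was not well above background on any 0 h array and was at least 1.96-fold higher. Hspa8 (0.04) and Hsp90aa1 (-0.057) did not pass the test, and Hsp90ab1 was lower (-0.23, but 0.11 under quantile normalization). Without replicate 4 of 4 h, 12 heat shock genes were higher and 0 lower.

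The unfolded protein response of the endoplasmic reticulum and the integrated stress response had medians near 0 (0.022 and 0.01). In the former 6 of 19 genes were higher and 8 lower, and in the latter 9 of 28 were higher and 11 lower. Both are near the 33.9% higher and 38.4% lower of all genes, so the counts set neither list apart. The oxidase Ero1a (0.84) and the chaperone Hyou1 (0.77) were the highest of the unfolded protein response. The chaperone Hspa5 (-0.12) did not pass the test and Sdf2l1 (-1.04), Herpud1 (-0.82) and Xbp1 (-0.66) were lower. The factor Atf4 (-0.12) did not pass, Ddit3 (-0.57) and Chac1 (-0.52) were lower, and Ppp1r15a, which reverses the phosphorylation of eIF2 and is also an immediate-early gene, fell by far the most (-2.29). Slc7a1 rose by 1.30 and the cystine carrier Slc7a11 by 0.92. The 22 tested cholesterol genes divided into 11 higher and 9 lower, against 33.9% and 38.4% of all genes, with Dhcr7 at -1.12.

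Of 25 genes of glycolysis and hypoxia 14 were higher and 2 lower, against 33.9% and 38.4% of all genes. At least 2-fold were 4 and 0, against 8.40% and 10.4%. Hk2, hexokinase 2, read 1.43, 1.43, 1.17 and 1.39 at 0 h and 3.08, 3.08, 3.17 and 3.16 at 4 h (1.77 ± 0.075, adjusted p = 2.71e-14), and the glucose carrier Slc2a1 rose by 1.64. Egln3, an oxygen-sensing hydroxylase, read 0.34, 0.45, 0.33 and 0.37 at 0 h and 2.35, 2.38, 2.44 and 2.12 at 4 h (1.95 ± 0.075, adjusted p = 5.7e-15). The later steps of glycolysis, from Aldoa (-0.05) to Ldha (-0.19), did not pass the test apart from Pgam1 (0.31), and Vegfa was lower (-0.46). The subunits of oxidative phosphorylation were slightly lower (median -0.23), 16 of 23 against 38.4% of all genes. None was higher and none past 2-fold. Of 24 proteasome subunits 9 were called higher, against 33.9% of all genes, and 0 past 2-fold (median 0.14). Without replicate 4 of 4 h, 12 genes of glycolysis and hypoxia and 11 proteasome subunits were higher.

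The circadian clock genes moved in both directions. Ciart, a clock repressor, read -2.85, -2.73, -2.91 and -2.81 at 0 h and -0.57, -0.66, -0.52 and -0.28 at 4 h (2.32 ± 0.094, adjusted p = 1.31e-14), and Cry1 was higher (1.71). Dbp, an output factor of the clock, read 1.26, 1.42, 1.54 and 1.30 at 0 h and -0.50, -0.49, -0.52 and -0.44 at 4 h (-1.87 ± 0.069, adjusted p = 2.92e-15), and Per1, which serum and cyclic AMP induce at once, was lower (-1.54). Per2 was higher with its brightest probe (1.54), but its probes were called in opposite directions. Of 17 tested genes 8 were higher and 7 lower, against 33.9% and 38.4% of all genes. At least 2-fold were 3 and 4, against 8.40% and 10.4%.

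**Figure D4:**
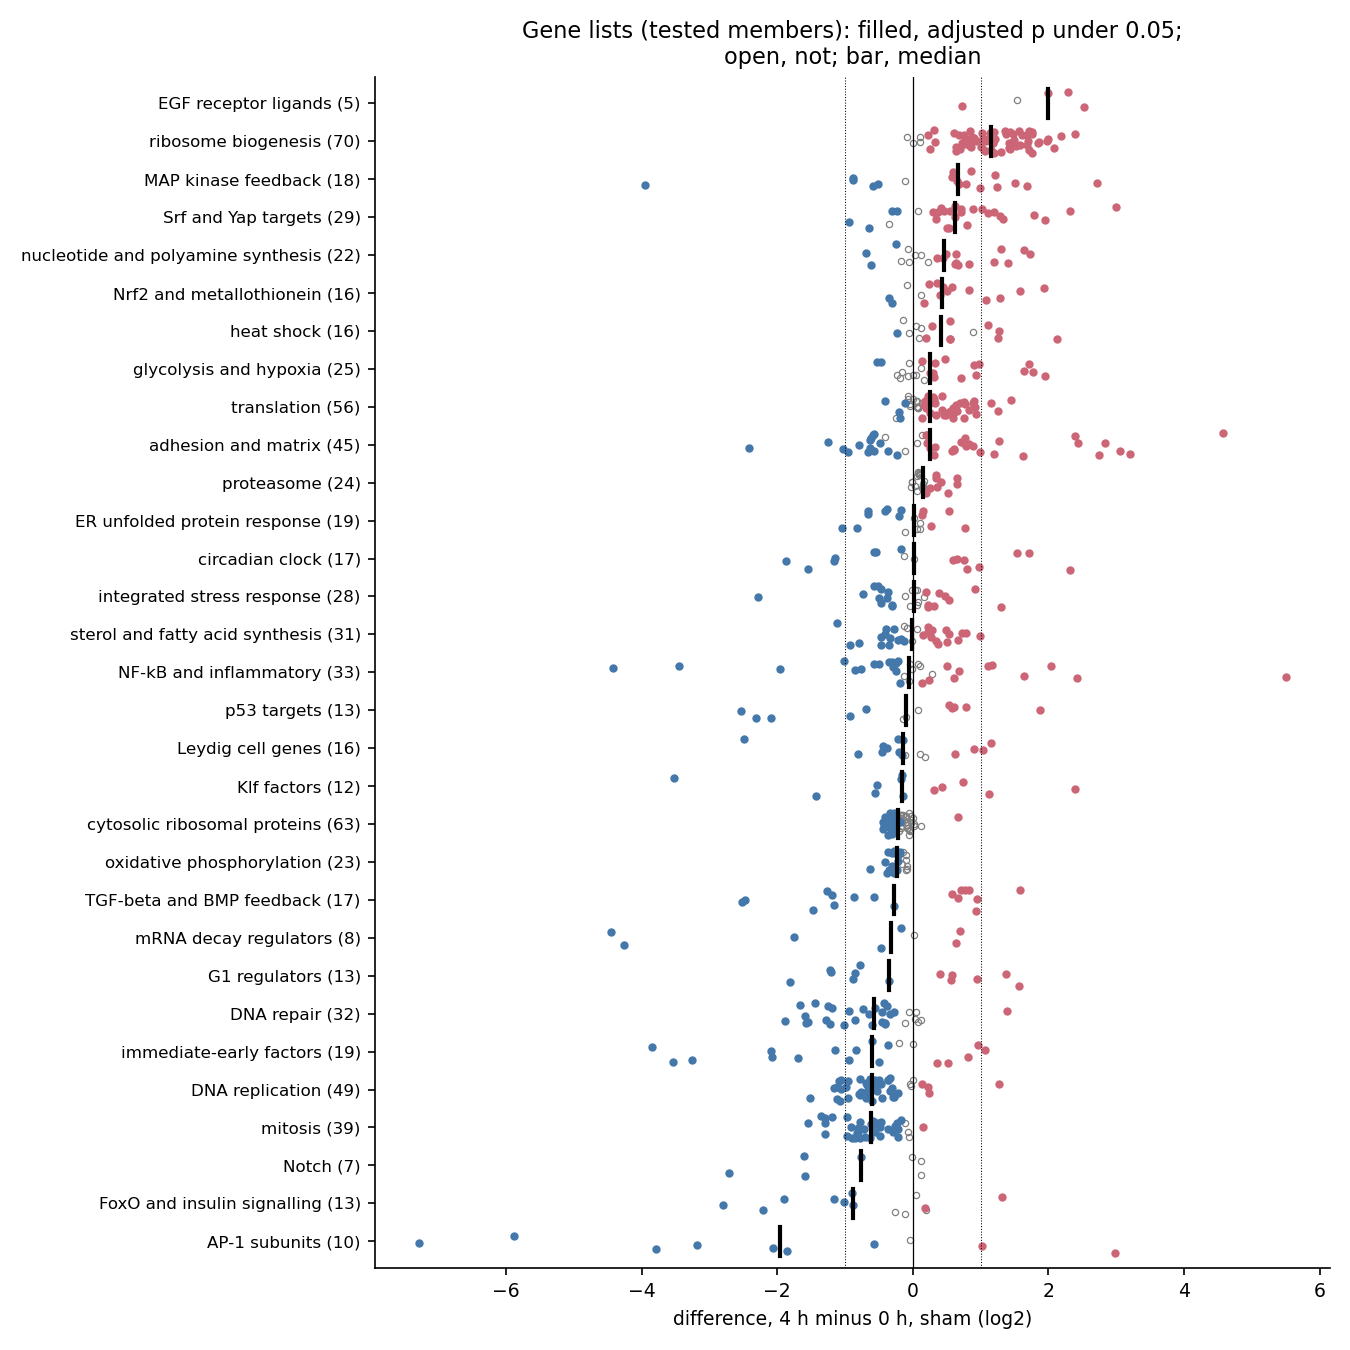
Difference from 0 h to 4 h (log2) of each tested gene in 31 lists, with the number of tested genes in brackets, ordered by the median (black bar). Red and blue points passed the test as higher and lower, open points did not, and dotted lines mark 2-fold. Ribosome biogenesis lies almost wholly to the right of 0, mitosis and DNA replication almost wholly to the left, and the AP-1 subunits span from -7.29 to 2.98.

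Of 24 Leydig cell genes 16 were tested, beside 14957 of all 23787 genes with a symbol, and several defining ones did not pass the filter. Cyp11a1, Hsd3b1, Hsd3b6 and Hsd17b3 of steroid synthesis and Lhcgr, the receptor of luteinizing hormone, were not well above background on all 4 arrays at either time, and no probe was matched to Insl3. Star, which carries cholesterol into mitochondria, was detected and read -3.47, -3.81, -3.58 and -3.91 at 0 h and -2.96, -2.40, -2.87 and -2.91 at 4 h (0.91 ± 0.13, adjusted p = 5.11e-06), with replicate 2 the highest at 4 h. Fdxr, which supplies electrons to the mitochondrial P450 enzymes, read 3.43, 3.48, 3.48 and 3.42 at 0 h and 0.95, 0.95, 0.92 and 1.04 at 4 h (-2.49 ± 0.052, adjusted p = 2.34e-18) and had by far the largest change of the list. Cyp17a1 (-0.46), Scarb1 (-0.44) and Tspo (-0.20) were lower. Of the identity factors Nr5a1 (0.18) and Gata4 (-0.12) did not pass the test, and Nr2f2 rose by 1.16. The 16 tested genes had 4 higher and 9 lower (3 and 8 without replicate 4 of 4 h), against 33.9% and 38.4% of all genes.

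Markers of other cells were mostly below the filter. Of 32 markers of Sertoli cells, germ cells, macrophages, endothelium, peritubular myoid cells and epithelium, 14 were tested, beside 14957 of all 23787 genes. Of these 14 markers 5 were higher and 7 lower, against 33.9% and 38.4% of all genes. Ptprc and Adgre1 of macrophages, Cdh5 and Kdr of endothelium, Dazl and Stra8 of germ cells, Amh and Fshr of Sertoli cells and Epcam and Cdh1 of epithelium did not pass. Other markers of each of these cell types did pass the filter. Of 6 germ cell markers 2 were tested, and 2 were lower (median -0.81). Of 6 endothelial markers 1 was tested, and it was lower (-0.41). Of 6 macrophage markers 3 were tested, with 1 higher and 2 lower. All 4 peritubular myoid markers were tested. Of these Acta2, smooth muscle actin (0.71), was higher with Cnn1, and Des (-0.59) and Myh11 (0.11, well above background on 3 arrays at 0 h) did not pass the test. Krt18, a keratin that cultured cells of many kinds express, read -0.62, -0.39, -0.37 and -0.58 at 0 h and 1.46, 1.46, 1.39 and 1.57 at 4 h (1.96 ± 0.071, adjusted p = 1.96e-15), and Krt8 rose with it (1.80). Csf1r was called higher (1.64) with probes in opposite directions, and Sox9 (-1.22) and Wt1 (-0.78) were lower.

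The nsPEF-exposed cells, which share no sample with the sham cells but lay on the same slides, give the same interval in other arrays. From 0 h to 4 h, 10.1% of genes were at least 2-fold higher and 10.4% lower in them. Of the 1256 genes that were at least 2-fold higher in sham cells, 1105 were so in nsPEF-exposed cells (88.0% of the sham list and 73.0% of the nsPEF list of 1513), and of the 1559 lower genes 1300 were (83.4% and 83.8% of 1551). Time and slide cannot be told apart in these cells either. The difference between the 2 intervals was called for 1 of 32566 probes (0.00307%), while 2844 had an unadjusted p under 0.05. It was called for 4 probes without replicate 4 of sham at 4 h. The 1 probe called in the main fit, which has no gene symbol, read -2.06, -1.68 and -3.29 for replicates 1, 2 and 4 of sham at 0 h. Its value for replicate 3 was left out for a marked spot, and it was not well above background on any sham array at 4 h. In nsPEF-exposed cells its mean was -7.13 at 0 h and -6.815 at 4 h (0.31, limma, adjusted p = 0.306). In sham cells at 24 h its mean was -7.55. The called difference thus rests on the 3 sham values at 0 h. For Fos the nsPEF difference was -7.14 beside -7.29 in sham, for Il1rl1 5.79 beside 5.51, for Rrp12 2.28 beside 2.39 and for Brca1 -1.54 beside -1.59.

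The sham cells at 24 h give the later level of these genes. Their arrays lay on slide 3 and are set against the same 0 h arrays, so the 2 differences of a gene are not independent, and the difference between 24 h and 4 h was not tested. Relative to 0 h the 24 h level was -0.0072 for Errfi1, -0.28 for Serpinb2, 0.024 for Odc1 and 0.38 for Rrp12, and 1.27 for Il1rl1. It was -0.037 for Bub1b and -0.045 for Tk1, after falls of over 1 log2 unit at 4 h. Fos (-6.15), Fosb (-6.62), Jun (-3.85), Zfp36 (-4.05) and Dusp1 (-3.61) were still far below 0 h. Relative to 0 h, Nr4a1 was at -3.54 at 4 h and -5.09 at 24 h, Hes1 at -2.71 and -4.02, and Egr1 at -3.85 and -2.34. By list, the median relative to 0 h went from 1.16 at 4 h to 0.15 at 24 h for ribosome biogenesis, from -0.61 to -0.076 for mitosis, from -0.58 to 0.047 for DNA repair and from -1.96 to -1.75 for the AP-1 subunits.

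**Figure D5:**
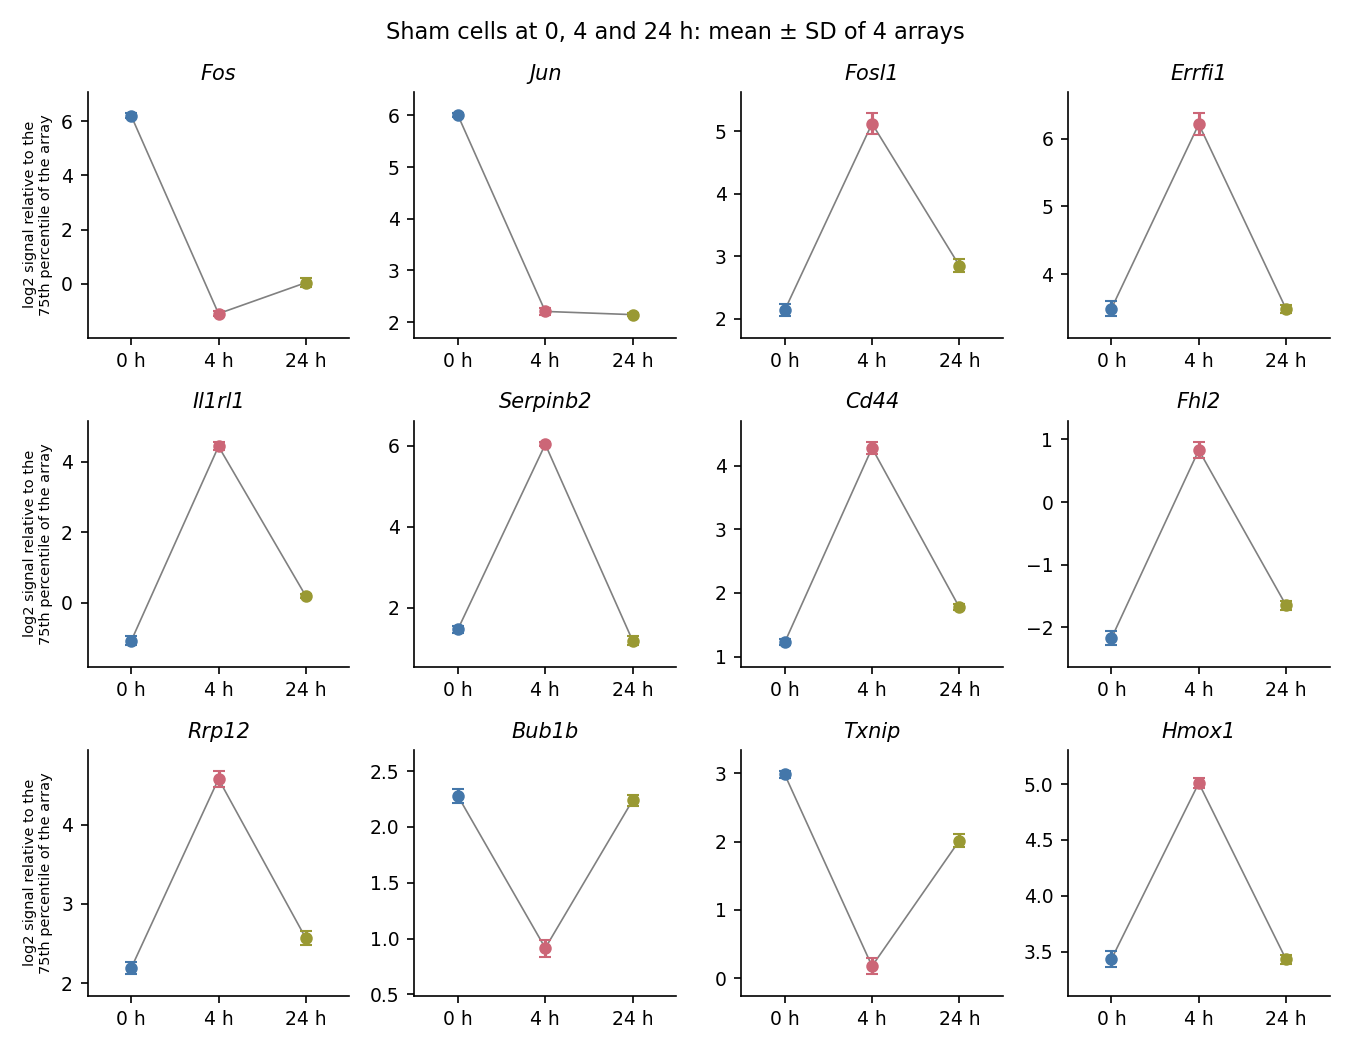
Mean log2 level ± SD (n = 4) of 12 genes in sham cells at 0 h, 4 h and 24 h, with the 3 times equally spaced and a scale of its own in each panel. Fosl1, Errfi1, Il1rl1, Serpinb2, Cd44, Fhl2, Rrp12 and Hmox1 peak at 4 h, Bub1b and Txnip are lowest at 4 h, and Fos and Jun stay low at 24 h.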

How the data were processed

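TM3 RNA of 24 samples was measured on 1-colour (Cy3) Agilent arrays, which the authors scanned and read with Agilent Feature Extraction 12.0. The deposited scanner files hold the processed signal, a background-subtracted intensity per spot. The deposited value table holds log2 values of the same arrays and was used as an alternative. Here log2 of the processed signal minus the 75th percentile of the array over spots that are not controls was taken, control spots and spots marked as outliers were left out, and spots of a probe were averaged. Groups came from the sample titles. A mean per group was fitted to all 24 arrays with limma 3.58.1 in R 4.3.3 (lmFit, contrasts.fit, eBayes, two-sided, Benjamini-Hochberg over 32566 probes), and the contrast was 4 h minus 0 h of sham. The steps were tested on simulated data. A call needed an adjusted p under 0.05. A gene was represented by its tested probe with the highest mean over the 8 arrays. Spread between replicates is that of 4 cultures of 1 line, and the number of arrays limits the precision. The lower bounds set the mean of the bright group against, for each array of the dim group, the higher of the dim probe's own signal and the lowest signal among probes well above background. The members and the gene lists were chosen with earlier results of these data known, so counts over a list are descriptions. Named were list members with the largest changes, a defining role or a change against the rest, the 10 largest rises and falls, and the 5 largest bounds in each direction. Some genes that this rule names are not reported here. Alternatives were other normalizations, background corrections, filters and fits, and leaving out each array in turn. Promoter windows came from RefSeq (GRCm38.p6).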

Additional observations from a re-analysis of the deposited data

Results flagged for a closer look

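In 20 of 192 groups of 4 arrays that were checked, 1 array lay far from the other 3. Chance gives about 1 in 20 such groups, and the lists share arrays and genes with each other, so the flags are not independent. Replicate 4 at 4 h was far out in the 75th percentile (787.2 intensity units against 455.4 to 472.8), in signal over background (16.13 against 11.95 to 12.5), in the median of the cytosolic ribosomal proteins relative to 0 h (-0.6062 against -0.1149 to -0.08089) and in that of DNA repair (-0.6708 against -0.5749 to -0.5632). Replicate 2 at 4 h had 96 marked spots against 130 to 137.

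Among genes at 4 h, Cdkn1a was low in replicate 1 (1.881 against 2.081 to 2.113), Eif5 high in replicate 3 (4.863 against 4.769 to 4.781) and Itga6 low in replicate 3 (5.851 against 5.901 to 5.91). Plaur (5.215 against 5.026 to 5.05) and Star (-2.396 against -2.963 to -2.87) were high in replicate 2. At 0 h, Col1a2 was low in replicate 2 (7.246 against 7.369 to 7.394), Egr1 in replicate 4 (5.486 against 5.591 to 5.608), and Hk2 (1.166 against 1.392 to 1.427) and Il11 (-2.644 against -2.483 to -2.457) in replicate 3. Tgfb3 was low in replicate 1 (2.634 against 2.775 to 2.788), where Ptpn22 was high (-1.451 against -3.85 to -3.499), the widest of these gaps. None of these arrays brought the groups of its gene to overlap.

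The medians of the AP-1 subunits in replicate 3 at 0 h (-0.1325 against 0.03531 to 0.06032), of DNA repair (-0.07328 against 0.01872 to 0.03388) and glycolysis and hypoxia (0.02228 against -0.009425 to -0.006078) in replicate 1 at 0 h, and of the Leydig cell genes in replicate 3 at 4 h (-0.188 against -0.1069 to -0.09879) were flagged in the same way. The probe without a gene symbol whose difference from 0 h to 4 h differed between nsPEF-exposed and sham cells did so by 5.776 on the log2 scale (limma, adjusted p = 2.398e-07).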

How the results depend on the processing

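Under the alternatives that kept single probes, the counts of probes higher and lower at 4 h stayed within 1.5 times of 10687 and 10963. With the mean of each gene's probes, which tests 14957 genes, 5113 were higher and 5644 lower, 1226 and 1477 by at least 2-fold. Normexp background correction, with an offset of 50 intensity units added to each signal, left 1391 probes at least 2-fold higher and 964 lower. The part of the offset in this was not tested. Scaling on probes detected on all 8 arrays gave 9636 higher and 12250 lower, and scaling on the spike-in controls 11076 and 9305, so the balance of the directions depends on the scaling. The median over genes moved from -0.037 to -0.11 and 0.02 with these. Leaving out each array in turn gave 10196 to 10496 higher and 10382 to 10711 lower probes, 2787 to 2965 and 2818 to 2931 by at least 2-fold.

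The count of probes whose difference differed between nsPEF-exposed and sham cells was 1, and 2 with scaling on probes detected on all 8 arrays or normexp, 3 with a filter of 2 arrays, the mean of a gene's probes or a plain analysis of variance, 4 with no filter, 14 with quantile normalization, 31 with array weights, 207 with a floor at the background and 0 with a filter of all 8 arrays. It was 1 to 4 with an array left out, the 4 without replicate 4 of sham at 4 h.

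Correlations of the deviations from 4 pairs of equal replicate number were -0.030 to 0.085, and 2 of 4 arrays matched their own number best. With 4 pairs this cannot exclude a pairing of the samples, which the main fit left out. The authors state that the tests of each biological replicate, apart from adhesion, used a common cell suspension. With the replicate block, 10752 probes were higher and 11034 lower, 2902 and 2881 by at least 2-fold, and 3 differed between nsPEF-exposed and sham cells.

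Of 736 list medians under the alternatives 648 moved by less than the spread between replicates. The medians of the ER unfolded protein response, the clock, the ribosomal proteins, the integrated stress response, the p53 targets and sterol synthesis changed sign in at least 1 setting. Of 5983 values of the named genes under the alternatives 50 lost the call (8 with scaling on the spike-in controls, 5 with only the 8 sham arrays), 27 gained it and 3 reversed. Csf2 was at -0.055 with normexp, Hsp90ab1 at 0.1138 with quantile normalization and Egr3 at -0.2095 with the mean of its probes. The probes of Egr3 were called in opposite directions, and the cause was not tested for any of the 3. Depth in the sense of signal over background limits what can be said of dim probes, which have bounds only.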
